A study of Mus musculus with 8 samples.

Results

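Hyaluronan is a long sugar polymer of the extracellular matrix, and the genes that make it, bind it and break it down were compared between 2 vessels of the mouse fetus, the ductus arteriosus and the aorta. They were represented by all probe sets annotated to exactly 1 of 10 listed genes (Has1, Has2, Has3, Hyal1, Hyal2, Cd44, Hmmr, Vcan, Hapln1 and Hapln3): 27 probe sets of 9 genes, out of 45037 probe sets and 18193 genes tested. Hyal1, a lysosomal hyaluronidase, had no such probe set, since its 2 probe sets are shared with a neighbouring gene, and is not analysed here. The ductus group held 4 Affymetrix arrays and the aorta group 4. Each array carried total RNA pooled from 1 litter, at most 10 pups, taken on day 19 of gestation. All mice were untreated and labelled wild type, with CD88 given as the strain, so by the labels the groups differ in the vessel alone. The pools are whole dissected vessels, so fewer cells of a type and less RNA per cell cannot be told apart in any difference below.

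In the plasma membrane, the synthases Has1, Has2 and Has3 each extend hyaluronan from UDP-sugars and push it out of the cell. Outside, versican binds hyaluronan and link proteins such as Hapln1 lock the complex, while Cd44 and Hmmr (RHAMM) are receptors and hyaluronidases shorten the chains. In the ductus, hyaluronan-rich matrix under the endothelium is known as part of the intimal cushions that precede closure, best described in larger mammals such as sheep and rabbits.

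Values are log2 signals after robust multi-array averaging (RMA). The arrays had first quartiles of 2.74 to 2.86 and medians of 4.36 to 4.42, and a value near the first quartile is not shown to be above background. Correlations over all probe sets were 0.985 to 0.990 between ductus arrays, 0.982 to 0.990 between aorta arrays and 0.974 to 0.987 between the vessels. Smooth muscle genes, which should mark both vessels, averaged 10.44 to 10.78 over the ductus arrays and 9.83 to 10.34 over the aorta arrays. Among lists of other cells, limma called 0 of 9 fibroblast, 10 T cell, 10 skeletal muscle and 6 adipocyte markers (4, 0, 2 and 0 at an unadjusted p under 0.05), and 1 of 7 Schwann and neuronal (S100b) and 1 of 8 airway markers (Scgb1a1), both higher in the ductus. All 10 T cell markers (median 1.17) and all 10 skeletal muscle markers (median 0.88) had positive differences, carried unevenly by the arrays. The T cell mean was 7.11, 5.10, 5.89 and 3.91 in the ductus, against 4.72, 3.73, 3.41 and 6.40 in the aorta. The skeletal muscle mean was 6.33 on ductus replicate 3 and 4.06 to 4.39 on the other ductus arrays, against 3.67 to 4.23 in the aorta. The adipocyte mean was 5.13 to 6.71 in the ductus, against 7.89 on aorta replicate 3 and 4.31 to 6.36 on the other aorta arrays. Of the 9 fibroblast markers 7 differed negatively and 2 positively (median -0.11). Their mean was 9.95 to 10.00 over the ductus arrays and 10.08 to 10.29 over the aorta arrays. The part of these cells and tissues in the results was not tested. Differences are ductus minus aorta, with the standard error of limma's fit, and a feature was called at a Benjamini-Hochberg adjusted p under 0.05. Probe sets were tested among all probe sets and genes, each through its brightest probe set, among all genes.

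Of the 27 probe sets, 2 were called higher in the ductus and 1 lower. Of all probe sets tested, 2.46% were called, 1.26% higher and 1.20% lower. By gene, Has2 alone was called higher (1 of 9) and Has1 and Hapln1 lower (2 of 9), where 3.86% of all genes were called, 1.80% higher and 2.06% lower. In 9 of the 27 probe sets the ductus arrays did not overlap the aorta arrays. Over all probe sets tested, 9.25% had no overlap. The median difference was 0.16 over the 27 probe sets and -0.02 over all probe sets tested.

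Promoters are shown for 3 members the results turn on: Has1, and the pair Hapln1 and Vcan. On chromosome 13 Hapln1 (89540529 to 89611832) and Vcan (89655309 to 89743027) are neighbours with 0 listed genes in the 43476 bases between them, and Hapln1 was called while Vcan was not. The windows hold 250 bases before and 50 after a start that RefSeq lists inside the gene's outer bounds, 5′ to 3′, in build GRCm38.p6. RefSeq's table of such windows matched 8 of the 10 listed genes and held none for Has2 and Has3, so no Has2 window could be shown. The intervals are chr17:17855139-17855438 on the minus strand for Has1, chr13:89540386-89540685 on the plus strand for Hapln1 and chr13:89742463-89742762 on the minus strand for Vcan. Capitals mark matches, on either strand, to the TATA box TATAAA, the GC box GGGCGG, the cAMP response element TGACGTCA or the E box CACGTG.
Has1: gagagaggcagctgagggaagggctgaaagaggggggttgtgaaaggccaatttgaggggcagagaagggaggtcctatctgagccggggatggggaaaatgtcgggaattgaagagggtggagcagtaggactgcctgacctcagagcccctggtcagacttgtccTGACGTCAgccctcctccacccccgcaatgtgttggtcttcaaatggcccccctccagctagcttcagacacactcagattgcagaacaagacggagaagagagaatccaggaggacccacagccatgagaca
Hapln1: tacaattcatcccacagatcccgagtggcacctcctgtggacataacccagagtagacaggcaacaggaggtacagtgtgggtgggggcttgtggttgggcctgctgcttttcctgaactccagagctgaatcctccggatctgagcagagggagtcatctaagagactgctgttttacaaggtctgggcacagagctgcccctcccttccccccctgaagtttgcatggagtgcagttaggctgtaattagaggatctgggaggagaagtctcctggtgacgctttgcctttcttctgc
Vcan: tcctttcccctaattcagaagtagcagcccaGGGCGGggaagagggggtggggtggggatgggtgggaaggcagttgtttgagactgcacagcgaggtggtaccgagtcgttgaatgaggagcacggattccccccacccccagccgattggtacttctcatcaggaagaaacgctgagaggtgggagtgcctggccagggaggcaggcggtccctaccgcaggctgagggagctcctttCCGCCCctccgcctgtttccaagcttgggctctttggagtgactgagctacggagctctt

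The Has1 window held the cAMP response element once, at positions 168 to 175 of the window, as did 1.79% of 32851 promoter windows. The Vcan window held the GC box at 2 places, a motif found in 35.66% of windows, and the Hapln1 window held none of the 4 motifs. The TATA box and the E box, in 13.62% and 7.15% of all windows, were in none of these 3 windows. A match is a description of letters and shows no binding.

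The synthases differed in both directions, and only Has2 was called both among probe sets and among genes. In GRCm38.p6, Has1 spans 17833691 to 17855589 on chromosome 17, Has2 56665627 to 56694546 on chromosome 15 and Has3 106870242 to 106882902 on chromosome 8. Has2, the main synthase of the developing cardiovascular system, was higher in the ductus through both of its probe sets, while Has1 was lower in the ductus in the gene-level test. The brighter Has2 probe set (1449169_at) read 6.76, 6.99, 6.82 and 7.15 on the ductus arrays, against 6.11, 5.59, 5.38 and 6.28 on the aorta arrays. Every ductus array lay above every aorta array, and the aorta arrays spread more widely. Its mean was 6.93 ± 0.18 over the ductus arrays and 5.84 ± 0.42 over the aorta arrays (SD, n = 4 each), a difference of 1.09 ± 0.20 (2.13-fold, 95% interval 0.64 to 1.54, adjusted p = 0.0222 among probe sets and 0.0166 among genes).

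The other Has2 probe set (1418678_at) read 3.84, 3.49, 2.97 and 3.24 in the ductus, against 2.07, 2.28, 2.55 and 2.76 in the aorta. All 4 aorta values lay below their arrays' first quartiles, so this fold (1.96, adjusted p = 0.0432) can be compressed. The Has2 call did not survive the loss of some arrays. Among genes it was lost without ductus replicate 4 (adjusted p = 0.0568) or aorta replicate 2 (0.0583). Among probe sets, 1449169_at lost it without ductus replicate 2 (0.0601), 3 (0.0508) or 4 (0.0750) or aorta replicate 2 (0.0756). The dimmer probe set lost it without ductus replicate 1 (0.0973), 2 (0.105) or 4 (0.0923) or aorta replicate 1 (0.104), 2 (0.129) or 3 (0.0720). With any one array left out, the differences of the 2 probe sets ran from 0.82 to 1.23. Smooth muscle markers moved the same way, with 3 of 10 called higher in the ductus (Myh11, Cnn1 and Mylk) and 0 lower, and their part in the Has2 difference was not tested.

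Has1 (1420590_at) read 4.35, 4.13, 4.12 and 4.33 in the ductus, against 4.77, 4.92, 4.58 and 5.18 in the aorta. The vessels did not overlap. The difference was -0.63 ± 0.14 (1.55-fold lower in the ductus), called among genes (adjusted p = 0.0404) and not among probe sets (0.0571). The gene call was lost on leaving out any array except aorta replicate 3, with adjusted p between 0.0694 (without aorta replicate 1) and 0.112 (without aorta replicate 2). It was lost too with a trended, robust prior (0.0776).

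Has1 is also known as a gene of mesothelium, the covering of body cavities, and mesothelial markers moved with the vessel. Of 11 such markers 8 were called lower in the ductus and 0 higher. Their mean signal was 6.49 to 7.11 over the ductus arrays and 7.73 to 9.18 over the aorta arrays, and no marker was below the first quartile on any array. Within the aorta, Has1 was highest on replicate 4 and the marker mean on replicate 1, and both were lowest on replicate 3. The markers' part in the Has1 difference was not tested.

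Has3, which makes shorter chains than Has2, read 3.19, 3.18, 3.45 and 3.07 in the ductus, against 3.53, 4.47, 3.53 and 3.96 in the aorta (1420589_at). The vessels did not overlap, although the highest ductus array nearly met the lowest aorta arrays, and the difference of -0.65 ± 0.21 did not pass (adjusted p = 0.178). All Has3 values were above their arrays' first quartiles.

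**Figure D1:**
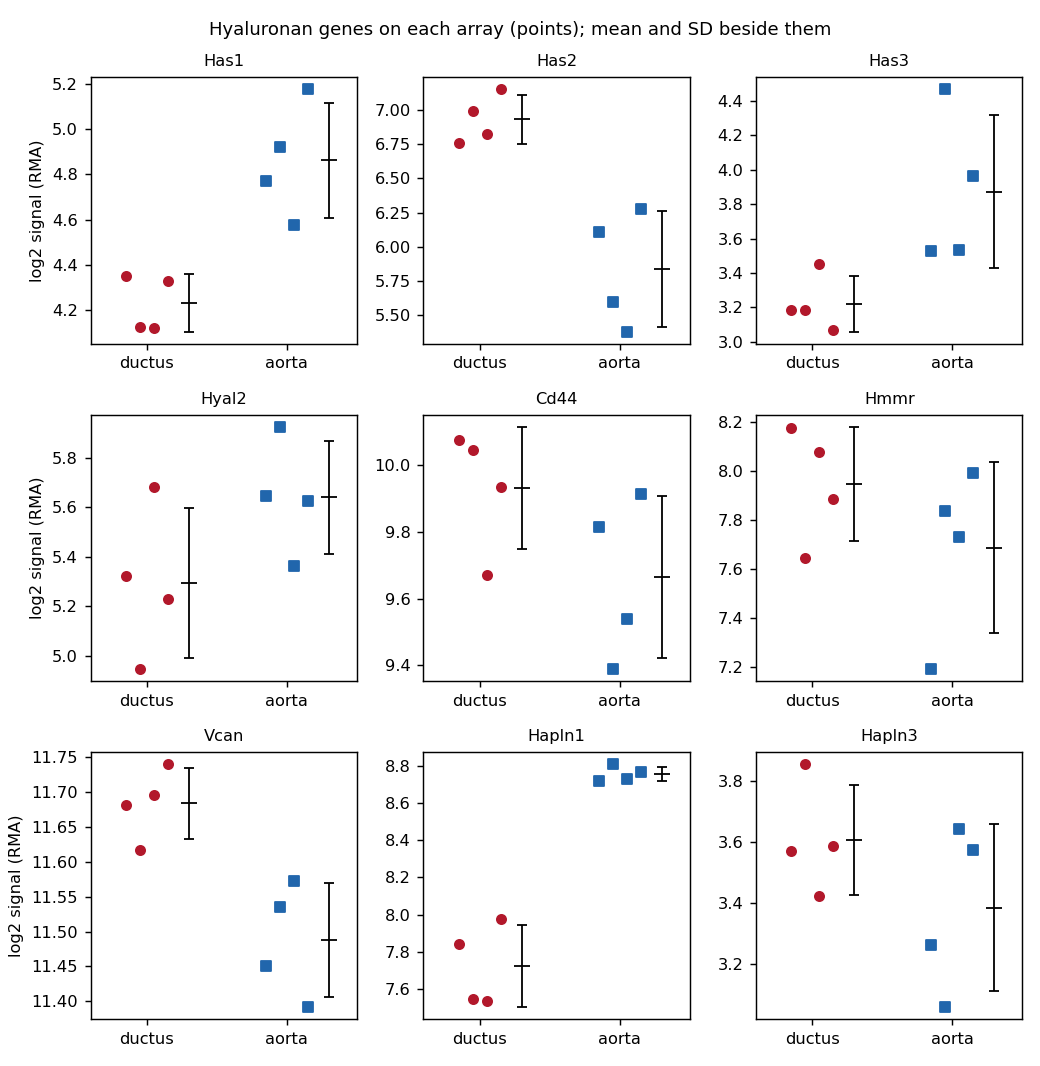
Log2 RMA signal of the brightest probe set of each of 9 hyaluronan genes on the 4 ductus arrays (red circles) and the 4 aorta arrays (blue squares), each panel on its own scale, with the group mean and SD beside the points. The ductus points lie above all aorta points for Has2 and Vcan and below them for Has1, Has3 and Hapln1.

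Hapln1, the link protein that fastens versican or aggrecan to hyaluronan, was lower in the ductus by the clearest margin of the 27 probe sets. Its brightest probe set (1438020_at) read 7.84, 7.54, 7.53 and 7.98 on the ductus arrays, against 8.72, 8.81, 8.73 and 8.77 on the aorta arrays. The aorta arrays lay close together and above every ductus array. The difference was -1.03 ± 0.13 (2.04-fold lower in the ductus, 95% interval -1.32 to -0.75, adjusted p = 0.00250 among probe sets and 0.00167 among genes). It passed without any one array, with adjusted p of at most 0.00801 among genes.

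The other 3 Hapln1 probe sets were dim. Those numbered 1426294_at and 1426295_at differed by -0.55 ± 0.19 (adjusted p = 0.207) and -0.46 ± 0.19 (0.322), and 1421633_a_at by 0.16 ± 0.12 (0.639) with 6 of 8 values below the first quartile. Probe sets thus disagreed in direction for 1 of 4. As the mean over its 4 probe sets Hapln1 differed by -0.47 and was still called (adjusted p = 0.0400). Hapln3, the link protein described in vascular smooth muscle, read 3.57, 3.85, 3.42 and 3.59 in the ductus, against 3.26, 3.06, 3.64 and 3.58 in the aorta. The vessels overlapped and the difference of 0.22 ± 0.16 did not pass (adjusted p = 0.608).

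Vcan, the large proteoglycan that hyaluronan carries in vessel walls, was bright in both vessels and none of its 8 probe sets was called. The brightest, 1427256_at, read 11.68, 11.62, 11.70 and 11.74 in the ductus, against 11.45, 11.54, 11.57 and 11.39 in the aorta. The ductus arrays were all higher, by little: 0.20 ± 0.10 (1.15-fold, 95% interval -0.03 to 0.42, adjusted p = 0.435). The next brightest, 1421694_a_at and 1427257_at, differed by -0.05 ± 0.12 and 0.02 ± 0.13, with overlapping vessels. The other 5 differed by 0.02 to 0.32, and 2 of them (1447586_at and 1459767_x_at) were below the first quartile on every array.

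The receptors did not pass either. Cd44 spans 102811141 to 102901669 on chromosome 2 and Hmmr 40701388 to 40733464 on chromosome 11 of GRCm38.p6. Cd44, the main hyaluronan receptor of mesenchymal cells and leukocytes, read 10.08, 10.05, 9.67 and 9.93 in the ductus, against 9.82, 9.39, 9.54 and 9.91 in the aorta (1423760_at). The arrays overlapped, and the difference was 0.27 ± 0.15 (95% interval -0.07 to 0.61, adjusted p = 0.495). A second Cd44 probe set, 1434376_at, read 8.87, 8.31, 8.28 and 8.51 in the ductus, against 7.87, 8.01, 7.76 and 8.14 in the aorta. Here the vessels did not overlap, and the difference of 0.55 ± 0.15 missed the threshold (adjusted p = 0.120). The remaining 2 Cd44 probe sets differed by -0.21 ± 0.19 and 0.05 ± 0.16, the negative one in 1443265_at, which had 5 of 8 values below the first quartile. Macrophage markers, whose cells carry Cd44, had 0 of 11 members called by limma and 1 at an unadjusted p under 0.05, with means of 6.49 to 7.40 in the ductus and 7.08 to 7.42 in the aorta.

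Hmmr binds hyaluronan at the cell surface and works on the mitotic spindle inside dividing cells. Its brightest probe set (1425815_a_at) read 8.18, 7.65, 8.08 and 7.89 in the ductus, against 7.19, 7.84, 7.73 and 7.99 in the aorta. The values overlapped, with aorta replicate 1 lowest, and the difference was 0.26 ± 0.19 (adjusted p = 0.619). The probe set 1450157_a_at differed by 0.85 ± 0.22 without overlap (adjusted p = 0.0960), while the other 3 lay between -0.06 and 0.28. Of 13 proliferation markers limma called 0, with 1 at an unadjusted p under 0.05. Their median difference was 0.05, against -0.03 over all genes. By sign, 11 of the 13 differed positively and 2 negatively. The markers with the 2 widest differences were the spindle motor Kif11 (0.53 ± 0.14, adjusted p = 0.0866) and the checkpoint kinase Bub1 (0.32 ± 0.22, 0.544). Kif11 passed without ductus replicate 3 (adjusted p = 0.0403). As the mean over its 3 probe sets it differed by 0.26 (0.332), and its probe set with the largest interquartile range by -0.06 (0.943).

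Hyal2, the membrane-anchored hyaluronidase that starts the cutting of long chains, read 5.32, 4.95, 5.68 and 5.23 in the ductus, against 5.65, 5.92, 5.36 and 5.63 in the aorta (1448679_at). The vessels overlapped, and the difference of -0.34 ± 0.18 did not pass (95% interval -0.74 to 0.05, adjusted p = 0.438).

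**Figure D2:**
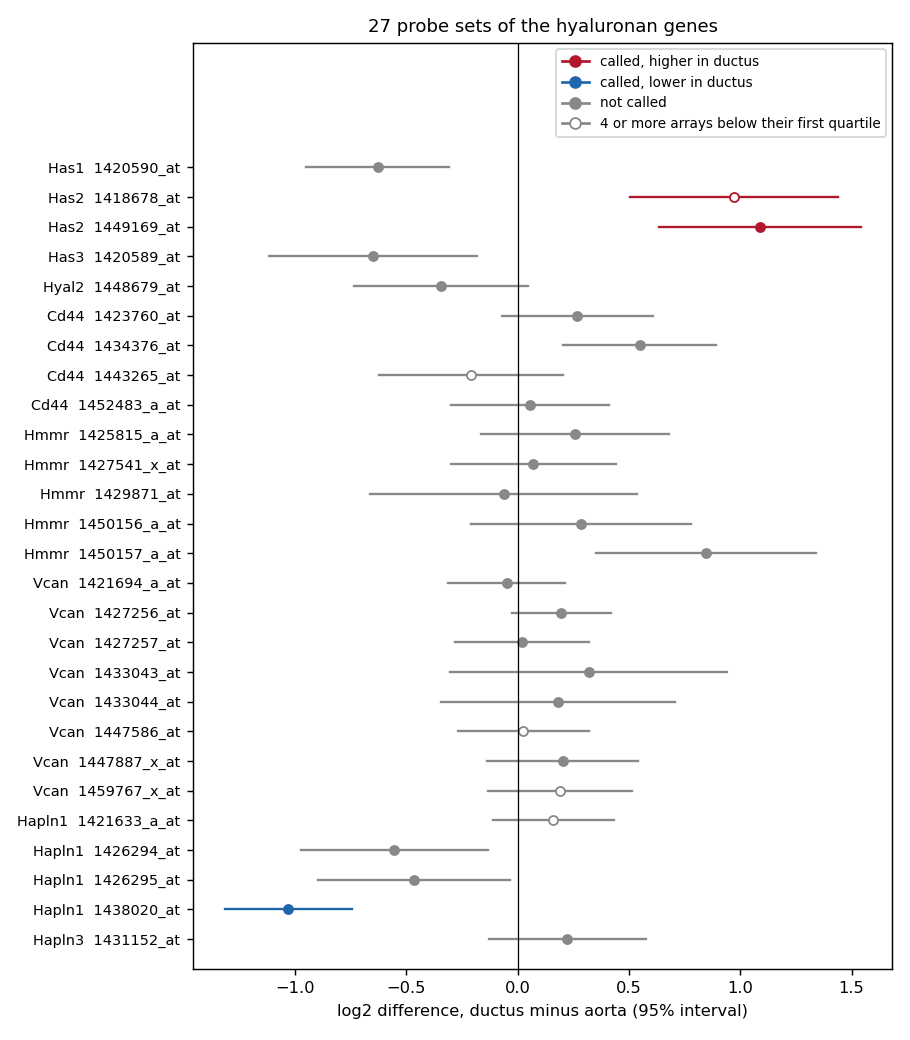
Log2 difference, ductus minus aorta, of each of the 27 probe sets (points) with limma's 95% interval (lines), red where called higher in the ductus, blue where called lower and grey where not called. Open points have 4 or more arrays below the first quartile. The 2 Has2 probe sets are called higher in the ductus and 1 of 4 Hapln1 probe sets lower, and the 8 Vcan probe sets lie between -0.05 and 0.32.

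The other genes of the pathway were taken through 8 lists and tested among all genes. Supply of the sugar precursors did not pass: 0 of 7 enzymes were called and 2 had an unadjusted p under 0.05, with a median difference of 0.005. Gfpt2, of the hexosamine pathway, differed by -0.61 ± 0.18 (adjusted p = 0.104), and by -0.74 with a call (0.0377) without aorta replicate 3. Ugdh, which makes UDP-glucuronic acid, differed by 0.32 ± 0.12 (0.232).

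Cross-linking of hyaluronan had 1 of 8 genes called. Ptx3, the pentraxin that ties hyaluronan chains together in the matrix around the ovulated egg, read 7.02, 7.40, 6.44 and 6.93 in the ductus, against 5.49, 5.42, 4.94 and 4.69 in the aorta. Ductus arrays were all higher, by 1.82 ± 0.24 (3.52-fold, adjusted p = 0.00255). Both Ptx3 probe sets went this way and 1 was called, and their mean differed by 0.94 (1.92-fold, adjusted p = 0.00461). Without any one array Ptx3 passed. The median difference over the 8 genes was -0.13.

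Degradation beyond the member hyaluronidases had 1 of 9 genes called, lower in the ductus, with a median difference of -0.15. Cemip, a hyaluronan-binding protein needed for the breakdown of hyaluronan by fibroblasts, read 5.24, 5.32, 4.36 and 4.12 in the ductus, against 8.02, 6.71, 5.71 and 7.66 in the aorta. The vessels did not overlap, but the aorta arrays spread over more than 2 log2 units. The difference was -2.27 ± 0.49 (4.81-fold lower in the ductus, adjusted p = 0.0337). Of 3 Cemip probe sets only this one went in that direction, and the mean over the 3 differed by -0.72 (adjusted p = 0.0524). Leaving out any array except aorta replicate 3 ended the call, with adjusted p from 0.0502 (without ductus replicate 2) to 0.101 (without ductus replicate 4). Within the aorta the arrays fell in the same order for Cemip and for the mesothelial marker mean (9.18, 8.31, 7.73 and 8.62 on replicates 1 to 4), and the markers' part in the difference was not tested. The hyaluronidases Hyal4, Hyal5 and Hyal6 were below the first quartile on all 8 arrays.

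Among 9 receptors and Cd44 partners, 2 were called lower in the ductus and 0 higher (median -0.34). Tlr4, an innate receptor that senses hyaluronan fragments, differed by -0.73 ± 0.12 (1.66-fold lower in the ductus, adjusted p = 0.0107). Of its 4 probe sets 3 went this way, and their mean did not pass (-0.35, adjusted p = 0.115). Lyve1, the hyaluronan receptor of lymphatic endothelium and some macrophages, read 8.08, 8.27, 8.28 and 7.83 in the ductus, against 9.01, 9.07, 8.45 and 8.80 in the aorta. The vessels did not overlap, and the difference was -0.72 ± 0.16 (1.65-fold lower in the ductus, adjusted p = 0.0434). Both Lyve1 probe sets went this way and 1 was called among probe sets, and their mean differed by -0.83 (adjusted p = 0.0171). Leaving out any array except aorta replicate 3 ended the Lyve1 call, with adjusted p from 0.0634 (without ductus replicate 3) to 0.123 (without aorta replicate 2). Of 5 lymphatic endothelial markers 2 were called lower, Lyve1 itself and Pdpn, with means of 7.37 to 8.01 in the ductus and 7.52 to 8.72 in the aorta. Of 12 endothelial markers 3 were called lower, with means of 7.37 to 7.52 in the ductus and 7.83 to 8.18 in the aorta. By sign, 11 of the 12 differed negatively and 1 positively (median -0.65), and limma gave 10 an unadjusted p under 0.05. The part of these cells in the receptor differences was not tested.

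Of 5 other lecticans and link proteins, 1 was called, lower in the ductus (median -0.18). Acan, the aggrecan of cartilage that Hapln1 fastens to hyaluronan, read 9.18, 10.19, 8.94 and 9.63 in the ductus, against 11.16, 11.39, 11.15 and 11.01 in the aorta. The vessels did not overlap, and the difference was -1.69 ± 0.24 (3.23-fold lower in the ductus, adjusted p = 0.00447). It passed without any one array. Of 10 cartilage markers Acan was the only one called. Of the other 9, 5 differed positively and 4 negatively, 1 at an unadjusted p under 0.05 (Comp, -0.37 ± 0.12, without overlap, adjusted p = 0.140), and their mean was 3.27 to 3.40 over the ductus arrays and 3.28 to 3.43 over the aorta arrays. Col9a1, the one of them with a mean clear of the first quartiles by a wide margin, averaged 6.95 in the ductus and 7.23 in the aorta, while Cnmd averaged 2.96 on the ductus arrays and 3.30 on the aorta arrays. Col2a1, the main cartilage collagen, averaged 3.03 on the ductus arrays and 2.75 on the aorta arrays, and the matrilins Matn1 and Matn3 were below the first quartile on all 8 arrays. The part of cartilage in the Acan difference was not tested.

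Proteases that cut versican differed in both directions: of 6, 3 were called higher in the ductus and 2 lower (median 0.31). Adamts9 read 11.52, 11.46, 11.43 and 11.49 in the ductus, against 10.50, 10.79, 10.48 and 10.66 in the aorta, a difference of 0.87 ± 0.10 (1.82-fold, adjusted p = 0.00167). All 3 of its probe sets were called, and the one with the largest interquartile range differed by 1.64 (3.12-fold, adjusted p = 0.00283). Adamts1 was 1.75-fold higher (0.81 ± 0.13, adjusted p = 0.00852) and Adamts4 1.43-fold (0.52 ± 0.10, 0.0223). Adamts20 read 5.20, 4.91, 4.81 and 5.08 in the ductus, against 6.48, 7.37, 6.78 and 6.23 in the aorta, a difference of -1.71 ± 0.22 (3.27-fold lower in the ductus, adjusted p = 0.00266). Adamts5, named here after its values were seen, differed by -0.66 ± 0.14 (1.58-fold lower in the ductus, 0.0295). Adamts9, Adamts1 and Adamts20 passed without any one array.

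The calls of Adamts4 and Adamts5 were less secure. On leaving out 1 array, Adamts4 passed only without aorta replicate 4, with adjusted p otherwise from just above 0.05 (without aorta replicate 2) to 0.0676 (without ductus replicate 2), and its 2 probe sets averaged did not pass (0.0528). Adamts5 lost its call without ductus replicate 1 (0.0880), 3 (0.0702) or 4 (0.0540) or aorta replicate 1 (0.0728), 2 (0.0890) or 4 (0.0629), and as the mean over its 4 probe sets (0.233).

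Matrix partners of versican also went both ways, with 1 of 5 called higher and 1 lower (median -0.01). Fbln1, a fibulin that versican binds, read 7.57, 7.23, 7.59 and 7.66 in the ductus, against 9.43, 9.47, 8.96 and 9.14 in the aorta. Every ductus array was lower by more than 1 log2 unit, and the difference was -1.74 ± 0.15 (3.34-fold lower in the ductus, adjusted p = 0.000258). The mean over its 3 probe sets differed by -1.05 (2.08-fold lower, adjusted p = 0.000874). Fn1, fibronectin, read 11.81, 11.66, 11.89 and 11.72 in the ductus, against 11.24, 11.33, 11.15 and 11.28 in the aorta. It was higher in the ductus by 0.52 ± 0.10 (1.44-fold, adjusted p = 0.0193), and did not pass without ductus replicate 1 (0.0610) or 3 (0.0587). Its other probe set, with the larger interquartile range, differed by 1.28 (2.42-fold, adjusted p = 0.00478).

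**Figure D3:**
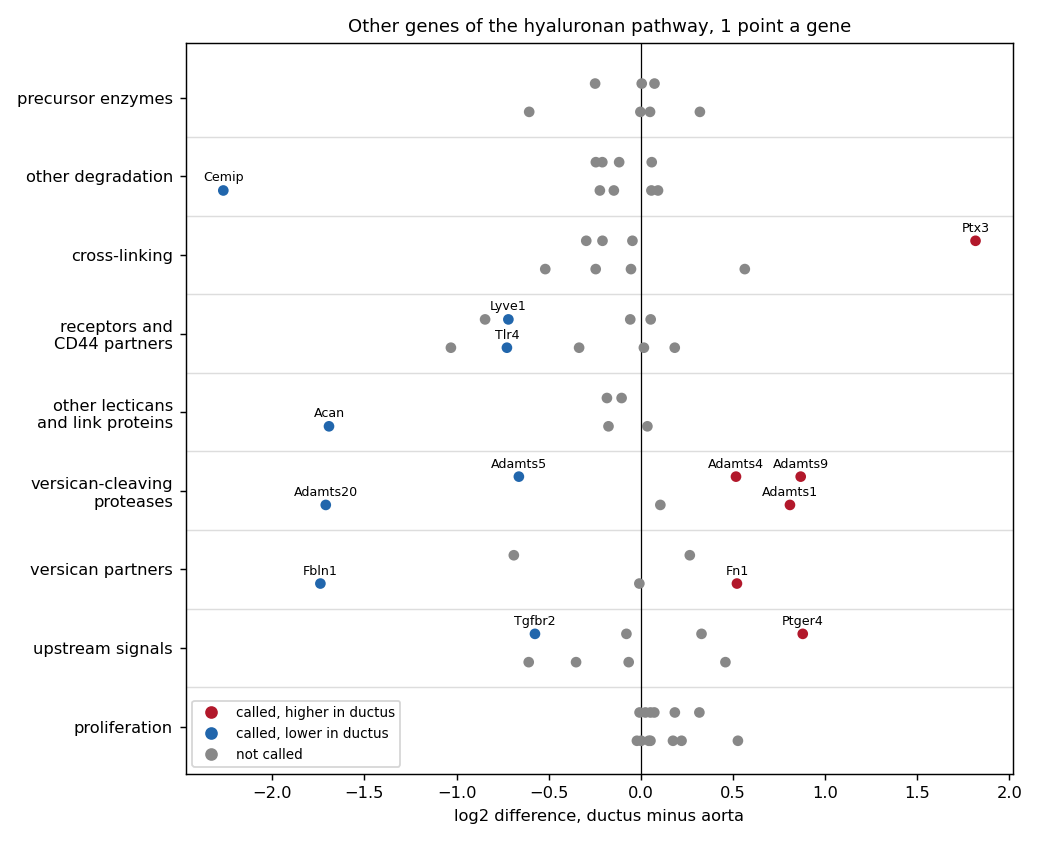
Log2 difference, ductus minus aorta, of each measured gene of 8 pathway lists and of the proliferation markers, with called genes named (red higher, blue lower in the ductus). Ptx3 at 1.82 and Cemip at -2.27 are the ends of the plot, and the 6 proteases lie on both sides of 0.

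Signals listed as upstream of hyaluronan in the ductus had 1 of 8 genes called higher and 1 lower (median -0.07). Ptger4, the prostaglandin E receptor EP4 through which cyclic AMP raises hyaluronan output in cultured ductus smooth muscle of rats, read 11.99, 12.08, 12.15 and 12.10 in the ductus, against 11.32, 11.26, 10.79 and 11.43 in the aorta. The vessels did not overlap (0.88 ± 0.14, 1.84-fold, adjusted p = 0.00907). Both of its probe sets were called, and the one with the larger interquartile range differed by 1.91 (3.76-fold, adjusted p = 0.000422). Adcy6, an adenylyl cyclase of that route, differed by -0.35 ± 0.12 and did not pass (0.171). Tgfbr2, a TGF-beta receptor, was 1.49-fold lower in the ductus (-0.57 ± 0.11, adjusted p = 0.0223), and did not pass without ductus replicate 2 (0.0692) or 4 (0.0733) or aorta replicate 1 (0.0565) or 2 (0.0678). All 3 Tgfbr2 probe sets went this way and 1 was called among probe sets. The one with the largest interquartile range did not pass among genes (-0.66, adjusted p = 0.0589), while the mean over the 3 did (-0.42, 0.0310).

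**Figure D4:**
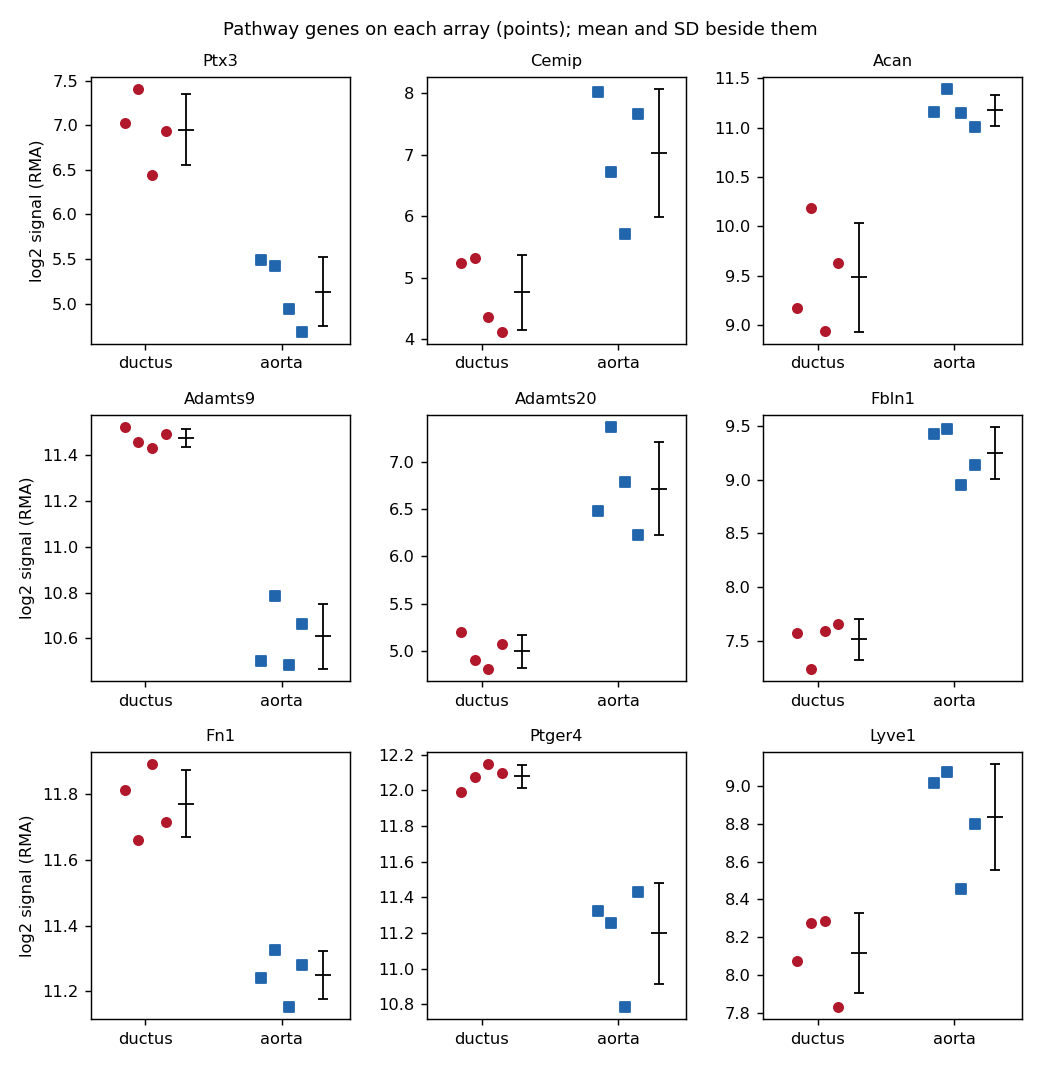
Log2 RMA signal of 9 pathway genes on the 4 ductus arrays (red circles) and the 4 aorta arrays (blue squares), each panel on its own scale, with the group mean and SD beside the points. In every panel the vessels are apart, with Ptx3, Adamts9, Fn1 and Ptger4 higher in the ductus and Cemip, Acan, Adamts20, Fbln1 and Lyve1 lower.

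For the called member genes, the most similar patterns were found by Pearson's r over the 8 arrays, which holds the vessel difference itself. Nearest to Has2 were Thbs1 (thrombospondin 1, r = 0.988), Slco3a1 (0.985) and Lrrn1 (0.974), each called higher in the ductus. Nearest to Hapln1 were Prkg2 (a cyclic GMP-dependent kinase, 0.991), Samd5 (0.980) and Gucy1a1 (a guanylate cyclase subunit, 0.977), each called lower. Nearest to Has1 were Dffa (0.981), Txndc11 (0.980) and Arhgap5 (0.970), of which Dffa alone was called (adjusted p = 0.0392). Among 18193 genes over 8 arrays such values are a ranking only.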

How the data were processed

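Total RNA of the vessel pools was labelled from 6 ug and hybridised to Affymetrix arrays, per the labels' protocols. The deposited table holds log2 values, made by the authors with RMA (background correction, quantile normalization, probe set summary) and Partek 6.6, per the submitters' processing notes. The sources used here do not give order or settings. Quantile normalization gives arrays one shape, so a shift of all genes would not be seen. The table holds no detection call, and no low-value filter was applied.

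Of 45101 probe sets, 64 controls were left out. Of the other 45037, 9160 were unlisted in the platform annotation, 932 had several symbols and 34945 exactly 1, of which 34741 took their symbol from the RefSeq table by gene ID. The brightest probe set over the 8 arrays stood for each of 18193 genes. Tissue was tested over all probe sets and over all genes with limma 3.58.1 in R 4.3.3 (lmFit, eBayes, two-sided, no covariate), with Benjamini-Hochberg adjustment over each table. The fit was tested on simulated data first. Replicates are labelled biological, and 4 arrays a group limit the precision. Levels carry the SD over arrays and differences the model's SE.

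The members, lists and tests were chosen with earlier results of these data known. Named are all members, up to 4 called genes a list with the smallest adjusted p (where none, the 2 largest differences), Ptger4, Adcy6 and the 3 genes most correlated with each called member. Unmapped list genes were not analysed. Alternatives were other scalings, low-value filters, a trended robust prior, array weights, a replicate block, other ways to pick a gene's probe set, and leaving out each array.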

Additional observations from a re-analysis of the deposited data

How the results depend on the processing

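Among genes, Has2 and Hapln1 kept direction and call under every scaling, filter, prior, array weight and probe set choice tried, with differences of 1.03 to 1.19 and -1.05 to -0.47, and Has1 lost its call with the trended robust prior and was not among genes with a mean above log2 6. That filter, like the prior, left 1 member gene called lower. Among probe sets, leaving out the 40% of features with the lowest mean took out the dimmer Has2 probe set (1 called higher) and called Has1 (2 called lower, adjusted p = 0.0499), and keeping a mean above log2 6 left 1 called higher. With one array left out, members called ran from 0 to 2 higher and 1 to 2 lower among probe sets, and from 0 to 1 higher and 1 to 2 lower among genes. All probe sets called then ran from 369 to 468 higher and 272 to 541 lower, against 567 and 541 with all arrays, and all genes called lower from 201 to 419, against 374. Counts over 1.5 times smaller came without ductus replicate 1 (315 probe sets and 239 genes lower), ductus replicate 2 (230 genes lower), ductus replicate 4 (369 probe sets higher, 272 lower, 214 genes lower) and aorta replicate 2 (377 probe sets higher, 283 lower, 201 genes lower).

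The replicate block left 314 probe sets called higher and 238 lower, and 208 genes higher and 195 lower, with fewer degrees of freedom for the error. It kept Has2 (adjusted p = 0.0349 among genes) and Hapln1 (0.0194), ended the call of Has1 (0.0852) and of the dimmer Has2 probe set (0.173), and left 1 member called higher among probe sets and 1 lower among genes. It also ended the calls of Adamts4 (0.109), Adamts5 (0.0591), Fn1 (0.120), Lyve1 (0.113), Tgfbr2 (0.113), Tlr4 (0.0684) and, at just above 0.05, Ptger4. Deviations of same-numbered ductus and aorta arrays correlated at -0.202 to -0.111, and no array correlated best with its own number. The labels do not say whether same-numbered pools came from the same litter. These correlations cannot decide it, since differences in dissected tissue between arrays also enter them.

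Signs changed only for differences that were not called. With one array left out these ran from -0.02 to 0.20 (Cd44 1452483_a_at), -0.066 to 0.16 (Hmmr 1427541_x_at), -0.28 to 0.12 (Hmmr 1429871_at), -0.10 to 0.014 (Vcan 1421694_a_at), -0.086 to 0.092 (Vcan 1427257_at) and -0.037 to 0.11 (Vcan 1447586_at). Normalizing again by quantiles gave -0.021 for Vcan 1427257_at, other choices of probe set gave -0.0635 for Hmmr and -0.061 for Kif11, and the cause was not tested.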

Other observations

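No member probe set had an array far from the other 3 of its vessel by Dixon's test, over 54 groups of 4 arrays.

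Within the list of cross-linking genes, 5 that are known as liver-made plasma proteins or their precursors varied together from array to array within the ductus. Itih1, Itih2, Itih3, Itih4 and Ambp were each highest on ductus replicate 3, then 1, then 4, and lowest on replicate 2. Ambp read 9.57, 8.26, 10.04 and 9.07 in the ductus, against 8.98, 9.76, 9.10 and 9.31 in the aorta, and Itih4 read 8.12, 6.96, 8.59 and 7.73 in the ductus, against 7.97, 8.67, 8.15 and 8.68 in the aorta. None of the 5 was called between the vessels. The liver genes Afp and Alb, chosen after these values were seen, stood in the same order over the ductus arrays, with Afp at 11.32, 10.23, 11.35 and 10.61 in the ductus, against 10.48, 10.83, 10.65 and 11.25 in the aorta. Alb read 12.43, 11.94, 12.61 and 12.19 in the ductus, against 12.17, 12.41, 12.36 and 12.47 in the aorta. Apoa1, chosen in the same way, did not keep that order, with 11.19, 10.55, 11.86 and 11.33 in the ductus, against 11.23, 11.55, 11.23 and 11.63 in the aorta. The order was not particular to plasma protein genes. The member Hyal2, at 5.32, 4.95, 5.68 and 5.23 in the ductus, stood in it too. So did the smooth muscle marker Cnn1 and the endothelial marker Vwf, while other markers of their lists, such as Acta2 and Tek, did not. These genes too were picked after their values were seen.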
